A study of Mus musculus with 4 samples.

Results

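NF-kB signalling, cytokine and inflammasome genes were followed in poly(A)-selected RNA from mouse lineage-negative bone marrow cells (transformed haematopoietic stem and progenitor cells, HSPCs) that carry an MLL-ENL fusion. The members were taken by gene symbol from a list of 38 genes, and all 38 were found among the 55426 genes of the deposited tables. In MLL-ENL, the amino-terminal portion of MLL, a histone methyltransferase, is fused to sequence of ENL, a chromatin reader whose YEATS domain binds acylated histone tails. The mutant group, called MLL-ENL dYEATS here, holds 2 libraries of cells whose fusion has ENL residues 372 to 559 without the YEATS domain, and the other group holds 2 libraries of cells with the MLL-ENL fusion. All 4 libraries come from transformed cells kept in serum-containing culture, so neither group is untransformed. The series' design text calls the libraries technical replicates, and the labels name 1 cell line per fusion. If the libraries of a group share a line, p-values measure at most the spread within that line, and line and fusion cannot be told apart. The labels do not state the age or strain of the marrow donors, or which ENL residues the other fusion holds.

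NF-kB factors are dimers of 5 related subunits that IkB proteins hold in the cytoplasm until receptors such as those for TNF, IL-1 and microbial products activate the IkB kinases. The freed dimers switch on cytokine and chemokine genes and also genes of their own inhibitors, which closes a feedback loop. In macrophages the same signal primes the inflammasome, a complex in which a sensor (NLRP3 or NLRC4) recruits the adaptor ASC and caspase-1, and caspase-1 cleaves the precursors of IL-1beta and IL-18.

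Library totals ran from 27812855 to 28814798 expected counts. Values are CPM, the count over the library total scaled by its TMM factor, and 3 counts in a library correspond to 0.102 to 0.112 CPM. Floors and count intervals cover counting error only. The SD of the log2 ratio between the libraries of a pair was 0.293 in MLL-ENL dYEATS and 0.474 in MLL-ENL. A ribosomal RNA gene, CT010467.1, took 5.42% to 5.46% of the counts in the MLL-ENL dYEATS libraries, against 9.25% and 4.94% in MLL-ENL libraries 1 and 2. The stem cell factor receptor gene Kit, a progenitor marker, lay at 2.62 and 3.91 CPM in MLL-ENL dYEATS and at 50.4 and 66.9 CPM in MLL-ENL. Kit is a single gene named outside the marker lists, and the stage of the cells was not tested. Marker genes of T and NK cells summed to 0.102 and 0 CPM against 0 and 0.0355 CPM, and 5 of 7 of them (Cd3e, Cd3g, Cd4, Cd8a and Ncr1) were at 0 throughout.

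Of the 38 members 32 had enough counts to be tested and 6 did not. In the MLL-ENL dYEATS libraries 5 of these 32 were higher (Rel, Relb, Bcl3, Tnfaip3 and Ccl6) and 4 were lower (Nlrp3, Nlrc4, Casp1 and Icam1), by edgeR's quasi-likelihood test at a Benjamini-Hochberg adjusted p under 0.05. That is 28.1% of the tested members, where 16.9% of all 13245 tested genes were called, 7.04% higher and 9.84% lower. The members called higher were factors, feedback inhibitors and a chemokine, and 3 of the 4 called lower were inflammasome parts. The median log2 fold change was 0.16 over the tested members and -0.01 over all tested genes. The median size of the log2 fold change, whatever its sign, was 0.42 over the members and 0.29 over all genes. In 26 of 32 tested members (81.2%) both libraries of one group lay above both of the other, against 64.3% of all tested genes. A further 6 members (Nfkb2, Ccl9, Ptgs2, Tnf, Pycard and Cxcl10) had adjusted p between 0.05 and 0.1. The members and their groups by role were listed with earlier results of these data known, so these counts describe the list and no test was made of it.

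**Figure D1:**
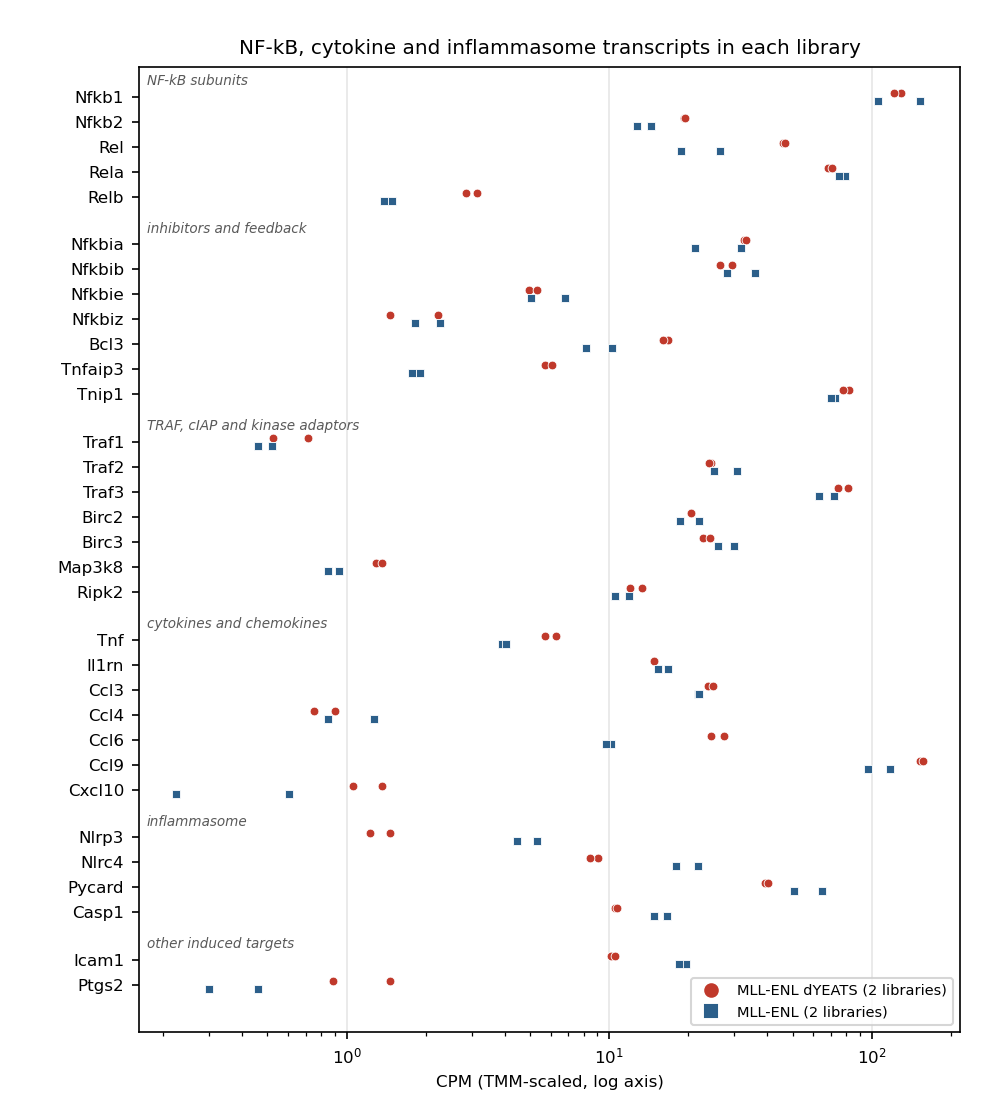
CPM of the 32 tested members in each library, on a log axis, grouped by role. Red circles are the 2 MLL-ENL dYEATS libraries and blue squares the 2 MLL-ENL libraries; Rel, Relb, Bcl3, Tnfaip3 and Ccl6 lie to the right in MLL-ENL dYEATS, and all 4 inflammasome genes lie to the left.

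Among the 5 subunit genes, Rel and Relb were higher in MLL-ENL dYEATS, and the other 3 were not called. That is 40.0% called, against 16.9% of all tested genes. Rel encodes c-Rel, a transactivating subunit prominent in blood cells (chromosome 11, 23736847 to 23770970, GRCm38). It lay at 46.2 and 46.8 CPM in MLL-ENL dYEATS and at 18.8 and 26.5 CPM in MLL-ENL. The groups did not overlap, the MLL-ENL libraries lay further apart, and the log2 fold change was 1.03 ± 0.18 SE (adjusted p = 0.0191). Relb, the partner of p52 in the non-canonical pathway (chromosome 7, 19606217 to 19629438), had 2.86 and 3.14 CPM in MLL-ENL dYEATS against 1.49 and 1.39 CPM in MLL-ENL, a log2 fold change of 1.06 ± 0.21 SE (adjusted p = 0.0268). Both libraries of the mutant were above both of the other group. The call of Relb was lost with DESeq2 (adjusted p = 0.0556) and without MLL-ENL dYEATS replicate 1 or 2 (0.105 and 0.217), at log2 fold changes of 1.12 and 0.98 without them. The calls of Rel and Relb were also lost with limma on log2(FPKM + 1) and log2(FPKM + 0.1), with adjusted p of 0.0544 and 0.0579 for Rel and of 0.076 and 0.103 for Relb.

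Nfkb2, which encodes p100 and its processed form p52, lay at 19.3 and 19.5 CPM in MLL-ENL dYEATS and at 12.8 and 14.5 CPM in MLL-ENL. These values do not overlap, and the difference was just outside the threshold (log2 fold change 0.50 ± 0.12 SE, adjusted p = 0.0503). It was called in 7 of 16 alternatives, which are other scalings, filters, tests and library subsets. Its exons overlap those of Psd and AC114539.1 on the other strand, and whether reads were counted by strand is not stated. Rela, the main transactivating subunit p65, lay at 68.2 and 70.4 CPM against 79.4 and 75.2 CPM (log2 fold change -0.16, adjusted p = 0.36). Rela was called lower when MLL-ENL replicate 1 (-0.12) or 2 (-0.20) was left out, but in those fits most of all tested genes were called. Nfkb1, which encodes p105 and p50, lay at 130 and 122 CPM in MLL-ENL dYEATS, inside the 106 and 153 CPM of MLL-ENL (log2 fold change -0.04, adjusted p = 0.91). Its direction rested on the MLL-ENL libraries. Leaving out MLL-ENL replicate 1 gave -0.28, called lower, and leaving out MLL-ENL replicate 2 gave 0.25, called higher.

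Levels of different genes are compared per length, in FPKM. Such comparisons depend on the transcript lengths that the authors used, which are not stated. Nfkb1 and Rela made up most of the subunit transcripts in all 4 libraries. Of the summed FPKM of the 5 genes, Nfkb1 took 49.4% and 47.2% in MLL-ENL dYEATS against 46.5% and 54.6% in MLL-ENL, and Rela took 36.9% and 39.0% against 45.7% and 37.1%. The shares of both genes overlapped between the groups. Rel took 5.83% and 5.77% in MLL-ENL dYEATS against 2.50% and 2.97% in MLL-ENL. Nfkb2 took 6.17% and 6.19% against 4.33% and 4.29%, and Relb 1.75% and 1.89% against 0.98% and 1.05%. The 3 minor subunits thus had larger shares in both mutant libraries, with no test made of the shares. The FPKM of Rel was 0.118 and 0.122 of that of Nfkb1 in MLL-ENL dYEATS, against 0.0538 and 0.0544 in MLL-ENL.

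**Figure D2:**
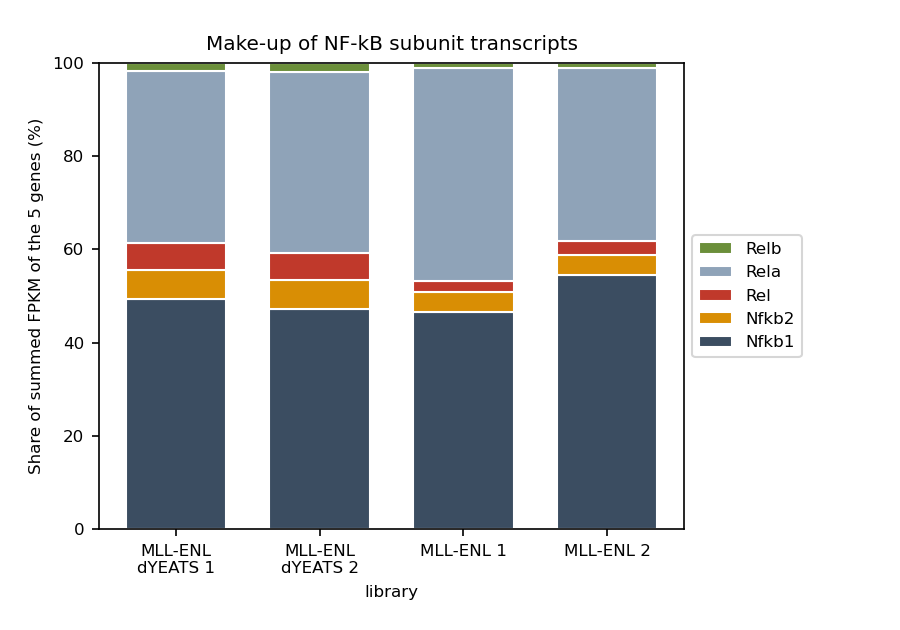
Share of each NF-kB subunit gene in the summed FPKM of the 5 genes, in percent, for each library. Nfkb1 and Rela make up most of each bar, and the Rel segment is 5.83% and 5.77% in the MLL-ENL dYEATS bars against 2.50% and 2.97% in the MLL-ENL bars.

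Promoter windows of 250 bases before to 50 bases after the annotated start are shown for the members that were called and held a match to the kB consensus, the DNA motif bound by NF-kB dimers, and for Nfkbia as the classic feedback target. Sequences are RefSeq promoters of build GRCm38.p6, written 5' to 3' on the strand of the gene, and capitals mark matches to the consensus on either strand (overlapping matches are run together). Rel is at chr11:23770920-23771219 (minus strand), Tnfaip3 at chr10:19015361-19015660 (minus), Bcl3 at chr7:19822706-19823005 (minus), Nlrp3 at chr11:59541319-59541618 (plus, the upstream of 2 listed starts) and Nfkbia at chr12:55492598-55492897 (minus).
Rel: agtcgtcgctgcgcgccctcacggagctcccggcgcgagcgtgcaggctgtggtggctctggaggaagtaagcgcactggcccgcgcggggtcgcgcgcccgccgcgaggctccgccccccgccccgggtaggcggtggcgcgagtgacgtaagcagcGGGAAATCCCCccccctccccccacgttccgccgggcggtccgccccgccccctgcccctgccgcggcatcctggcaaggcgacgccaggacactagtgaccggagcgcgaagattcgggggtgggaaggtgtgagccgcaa
Tnfaip3: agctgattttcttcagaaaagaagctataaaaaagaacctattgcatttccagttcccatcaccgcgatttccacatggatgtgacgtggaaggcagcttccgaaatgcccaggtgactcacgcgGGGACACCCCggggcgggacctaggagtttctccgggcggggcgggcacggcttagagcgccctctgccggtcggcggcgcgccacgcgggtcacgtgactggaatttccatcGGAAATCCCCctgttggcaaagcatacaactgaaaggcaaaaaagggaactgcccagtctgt
Bcl3: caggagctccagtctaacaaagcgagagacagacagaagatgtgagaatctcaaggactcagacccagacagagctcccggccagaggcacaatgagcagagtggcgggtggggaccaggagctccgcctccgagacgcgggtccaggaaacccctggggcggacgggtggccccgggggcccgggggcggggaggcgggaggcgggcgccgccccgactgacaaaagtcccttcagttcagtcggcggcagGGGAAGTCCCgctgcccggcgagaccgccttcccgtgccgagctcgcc
Nlrp3: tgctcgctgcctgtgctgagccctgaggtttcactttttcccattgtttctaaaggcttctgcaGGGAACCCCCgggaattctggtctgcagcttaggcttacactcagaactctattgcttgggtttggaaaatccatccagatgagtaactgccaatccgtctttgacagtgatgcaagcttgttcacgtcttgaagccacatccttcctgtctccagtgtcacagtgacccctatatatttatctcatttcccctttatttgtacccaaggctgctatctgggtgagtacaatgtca
Nfkbia: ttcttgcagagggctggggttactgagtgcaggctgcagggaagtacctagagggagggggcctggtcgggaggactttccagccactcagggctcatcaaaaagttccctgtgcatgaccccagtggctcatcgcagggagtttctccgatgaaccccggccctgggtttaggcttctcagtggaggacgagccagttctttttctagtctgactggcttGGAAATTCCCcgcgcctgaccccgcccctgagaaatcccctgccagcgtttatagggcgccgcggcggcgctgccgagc

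The Rel window holds the match GGGAAATCCC 92 bases before the start, overlapped by one on the opposite strand that begins 91 bases before it. In Tnfaip3 there is GGGACACCCC 125 bases before the start and a match on the opposite strand 12 bases before it. Bcl3 has GGGAAGTCCC from base 3 after the start, Nlrp3 has GGGAACCCCC 186 bases before it, and Nfkbia has a match on the opposite strand 29 bases before it. RefSeq windows were found for 31 members, and 13 of these (41.9%) held the 10-letter consensus in at least 1 window, against 9.55% of the 27025 genes of the table (8.46% of its 32851 windows). Of the members called higher, 3 of 4 with a window had a match, of those called lower 1 of 4, and of the tested members not called 7 of 18. The list was picked for NF-kB genes and their targets, so its share of matches is not independent of that choice, and no test was made of it. A match is a string of letters and was not tested for bound protein. Relb, Cd40, Nfkb1, Map3k8, Ccl4, Nfkbiz and Ripk2 had no entry.

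Of the 7 inhibitors and feedback genes Tnfaip3 and Bcl3 were higher in MLL-ENL dYEATS, and the other 5 were not called. That is 28.6% called, against 16.9% of all tested genes. Tnfaip3 encodes A20, an enzyme that edits ubiquitin chains and ends NF-kB signalling (chromosome 10, 19000910 to 19015657). It had 5.72 and 6.07 CPM in MLL-ENL dYEATS and 1.90 and 1.78 CPM in MLL-ENL. The pairs were tight and far apart, with a log2 fold change of 1.68 ± 0.18 SE (adjusted p = 0.00399), which is 3.20-fold. Bcl3, an atypical IkB that joins p50 or p52 in the nucleus (chromosome 7, 19808462 to 19822770), had 16.8 and 16.1 CPM in MLL-ENL dYEATS and 8.17 and 10.3 CPM in MLL-ENL. The log2 fold change was 0.83 ± 0.16 SE (adjusted p = 0.023). Leaving out an MLL-ENL dYEATS library ended the call of Bcl3, with adjusted p = 0.122 at 0.80 for replicate 1 and 0.0743 at 0.85 for replicate 2. So did limma on FPKM, at 0.0544 with a pseudocount of 1 and 0.0505 with 0.1.

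The classical IkB genes, whose products hold NF-kB in the cytoplasm, gave no call. Nfkbia (IkB-alpha) lay at 32.6 and 33.2 CPM in MLL-ENL dYEATS and at 31.8 and 21.2 CPM in MLL-ENL (log2 fold change 0.31 ± 0.21 SE, adjusted p = 0.345). MLL-ENL replicate 1 was nearly level with the mutant and replicate 2 was lower, and Nfkbia was called higher without replicate 1 (log2 fold change 0.64). Nfkbib (IkB-beta), whose exons overlap Sirt2 on the other strand, lay at 29.4 and 26.4 CPM against 36.1 and 28.2 CPM (adjusted p = 0.43). Nfkbie (IkB-epsilon) lay at 4.94 and 5.34 CPM against 5.04 and 6.82 CPM (adjusted p = 0.53). Both pairs overlapped, and both genes were called lower when 1 MLL-ENL library was left out, Nfkbib without replicate 2 (log2 fold change -0.37) and Nfkbie without replicate 1 (-0.41). Nfkbiz, the inducible nuclear IkB-zeta, lay at 1.46 and 2.23 CPM against 1.83 and 2.27 CPM (adjusted p = 0.752). Tnip1, an A20-binding protein, lay at 81.8 and 78.1 CPM against 72.3 and 70.1 CPM, a small difference that did not overlap and was not called (log2 fold change 0.17, adjusted p = 0.333). It was called higher without MLL-ENL replicate 1 (0.19) or 2 (0.14). In FPKM, Tnfaip3 was 0.0602 and 0.0568 of Nfkbia in MLL-ENL dYEATS, against 0.0199 and 0.031 in MLL-ENL, so A20 transcripts were a small part beside IkB-alpha in every library.

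No gene was called among the 7 tested TRAF, cIAP and kinase adaptors, most of which act between receptors and the IkB kinases (median log2 fold change 0.17, from -0.25 to 0.57). Of all tested genes 16.9% were called, so with 7 genes the absence of calls says little about the group. Traf2 and Traf3, receptor adaptors, lay at 24.4 and 24.1 CPM against 30.6 and 25.1 CPM (adjusted p = 0.372) and at 81.0 and 74.8 CPM against 63.0 and 71.8 CPM (0.3). Birc2 and Birc3, neighbouring ubiquitin ligase genes for cIAP1 and cIAP2, lay at 20.5 and 20.6 CPM against 18.6 and 22.1 CPM (0.952) and at 22.9 and 24.2 CPM against 26.1 and 30.0 CPM (0.237). These are small differences, with log2 fold changes between -0.25 and 0.21. Map3k8, the kinase TPL2 that p105 restrains (chromosome 18), had 1.29 and 1.36 CPM against 0.933 and 0.853 CPM (log2 fold change 0.57 ± 0.25 SE, adjusted p = 0.181). Ripk2, which relays signals from NOD receptors, lay at 13.3 and 12 CPM against 10.5 and 11.9 CPM (0.458). Traf1, an inducible adaptor, had 15 to 21 counts in the MLL-ENL dYEATS libraries and 13 and 14 in the MLL-ENL libraries (0.544). The receptor gene Cd40 had 1 and 0 counts against 0 and 0 and was not tested. Without MLL-ENL replicate 1, Traf3 (log2 fold change 0.12) was called higher and Birc3 (-0.35) lower. Without MLL-ENL replicate 2, Traf3 (0.31) and Ripk2 (0.26) were called higher and Traf2 (-0.34) lower.

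**Figure D3:**
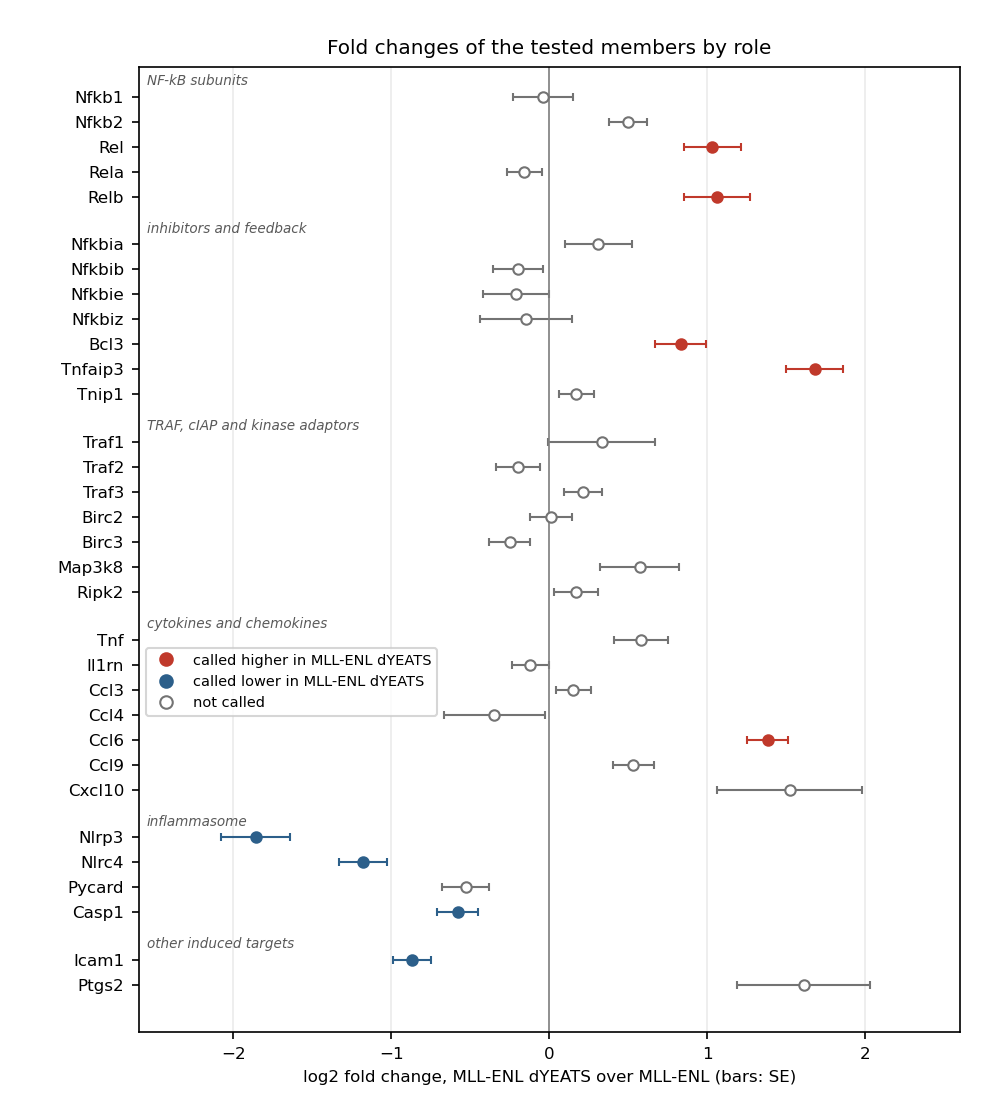
Log2 fold change of MLL-ENL dYEATS over MLL-ENL for the 32 tested members by role, with bars of 1 SE. Filled points passed the adjusted p of 0.05; subunits, inhibitors and cytokines have called points above 0 and none below, the adaptors have none, and the 4 inflammasome genes lie between -1.86 and -0.53.

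Of 12 cytokine and chemokine genes 7 were tested, and Ccl6 alone was called, higher in MLL-ENL dYEATS. That is 14.3% called, against 16.9% of all tested genes. Ccl6 is a rodent CC chemokine of myeloid cells (chromosome 11, 83587882 to 83593087). It had 24.5 and 27.4 CPM in MLL-ENL dYEATS and 10.2 and 9.70 CPM in MLL-ENL, with a wide gap between the pairs. The log2 fold change was 1.38 ± 0.13 SE (adjusted p = 0.00229), or 2.6-fold, and it was called in all 16 alternatives. Its neighbour Ccl9, the related chemokine MIP-1gamma (chromosome 11, 83572919 to 83578636), had the highest FPKM of the 12 cytokine genes in all 4 libraries. It lay at 153 and 157 CPM (109 and 116 FPKM) in MLL-ENL dYEATS, and at 118 and 96.7 CPM (85.8 and 64.8 FPKM) in MLL-ENL. The groups did not overlap, but the test gave adjusted p = 0.0541 at a log2 fold change of 0.53 ± 0.13 SE. Ccl9 was called in 6 of 16 alternatives, among them DESeq2 (0.0231) and scaling by library totals (0.0332).

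Ccl3 (MIP-1alpha), in the same stretch of chromosome 11, lay at 23.9 and 24.8 CPM against 21.8 and 22.1 CPM (log2 fold change 0.15, adjusted p = 0.399). Ccl4 (MIP-1beta), next to it, had 22 and 26 counts against 34 and 24 counts, with overlap (log2 fold change -0.35, adjusted p = 0.493). Of 4 chemokine genes on this stretch, then, 1 was called. Tnf had 5.68 and 6.28 CPM in MLL-ENL dYEATS and 3.92 and 4.05 CPM in MLL-ENL (log2 fold change 0.58 ± 0.17 SE, adjusted p = 0.0712). Cxcl10, an interferon- and NF-kB-responsive chemokine, had 31 and 39 counts against 6 and 17 counts (1.52 ± 0.46 SE, 0.0849), and its exons overlap Art3 on the other strand. Tnf and Cxcl10 were higher in both mutant libraries without passing the test. Leaving out MLL-ENL replicate 1 (0.56 and 0.99 on the log2 scale) or 2 (0.61 and 2.41) made both higher calls, Cxcl10 also without MLL-ENL dYEATS replicate 1 (1.70). With every library kept, Tnf was called higher with the gene-length trend removed and Cxcl10 with a replicate block.

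Transcripts of the inflammasome's cytokine substrates were near the floor in both groups. Il1b had 5 and 5 counts in MLL-ENL dYEATS and 6 and 6 in MLL-ENL, so their ratio was 0.788 (0.305 to 1.99 as the 95% counting interval). Il18 had 4 and 2 counts against 2 and 1, a ratio of 1.89 (0.404 to 11.7). The cytokine gene Il1a had 5 and 2 counts against 4 and 2, a ratio of 1.10 (0.318 to 3.98). No difference in these 3 genes was detectable at this depth. Il1b overlaps Il1bos on the other strand (0 and 1 counts in MLL-ENL dYEATS, 4 and 2 in MLL-ENL) and Il1a overlaps Gm14023 (9 and 4 counts against 5 and 4), so the counts of both are uncertain. Il6 was at 0 in all 4 libraries. Cxcl2, a neutrophil-attracting chemokine, had 9 and 5 counts in MLL-ENL dYEATS against 0 and 2 in MLL-ENL, a ratio of 6.62 (1.52 to 60.0), and was too low to be tested. In contrast to Il1b, the IL-1 receptor antagonist gene Il1rn lay at 14.8 and 14.9 CPM in MLL-ENL dYEATS and at 15.4 and 16.8 CPM in MLL-ENL (log2 fold change -0.12, adjusted p = 0.532). Per length it was 87.9 and 80.1 times as abundant as Il1b in the mutant libraries, and 51.7 and 80.3 times in the MLL-ENL libraries, on few Il1b counts.

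All 4 inflammasome genes had lower CPM in both MLL-ENL dYEATS libraries than in either MLL-ENL library, and Nlrp3, Nlrc4 and Casp1 were called lower (median log2 fold change -0.88). Of all tested genes, 64.3% did not overlap between the groups, in either direction, and 9.84% were called lower. Nlrp3, the sensor of membrane damage and ion flux (chromosome 11, 59541568 to 59566956), had 1.23 and 1.46 CPM in MLL-ENL dYEATS and 4.48 and 5.30 CPM in MLL-ENL. Its log2 fold change was -1.86 ± 0.22 SE (adjusted p = 0.00525), which is 3.63-fold lower in the mutant. Nlrc4, the sensor that pairs with NAIP proteins to detect flagellin (chromosome 17, 74425438 to 74459142), had 9.05 and 8.47 CPM against 18 and 21.9 CPM (-1.18 ± 0.15 SE, adjusted p = 0.0067). Both sensors were called in every alternative in which they were tested, 15 for Nlrp3 and 16 for Nlrc4. In the weakest of these each passed the threshold only narrowly. Casp1, the protease (chromosome 9, 5298517 to 5307265), lay at 10.5 and 10.7 CPM in MLL-ENL dYEATS and at 16.7 and 14.9 CPM in MLL-ENL (-0.58 ± 0.13 SE, adjusted p = 0.0374). Its call was lost in 6 of 16 alternatives, with DESeq2 (0.0541), without a filter (0.0506), with limma on log2 FPKM (0.113 and 0.101) and without MLL-ENL dYEATS replicate 1 or 2 (0.441 and 0.361; log2 fold change -0.56 and -0.60). Pycard, which encodes the adaptor ASC, lay at 39.4 and 40.4 CPM against 64.5 and 50.5 CPM (-0.53 ± 0.15 SE, adjusted p = 0.0723), and the overlapping antisense gene Gm45205 had 44 to 70 counts per library. Pycard was called lower with DESeq2 (adjusted p = 0.041), with a replicate block and with the gene-length trend removed. Pycard was also called lower when an MLL-ENL library was left out (-0.34 for replicate 1 and -0.69 for replicate 2). In FPKM its values overlapped, at 23.6 and 28.1 in MLL-ENL dYEATS and 43.6 and 26.5 in MLL-ENL. The 4 genes kept their negative sign in all alternatives, but these reuse the same 4 libraries. As the groups did not overlap in CPM, leaving out 1 library could hardly reverse a sign. Per length the adaptor exceeded both sensors in every library.

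Monocytes and neutrophils are known sources of inflammasome and cytokine transcripts, and their markers also differed between the groups. In the monocyte, neutrophil and dendritic cell lists, genes were called in both directions. Monocyte and macrophage markers summed to 892 and 915 CPM in MLL-ENL dYEATS and to 1200 and 1160 CPM in MLL-ENL, and Ly6c2 alone set that direction, at 660 and 693 CPM against 1090 and 1020 CPM. Without Ly6c2 the other 11 summed to 232 and 222 CPM against 111 and 144 CPM. Of 8 tested, Csf1r, Ccr2, Cd68, Mpeg1 and Adgre1 were called higher and Ly6c2 lower, and C1qa, C1qb and C1qc were at 0 throughout. Neutrophil markers summed to 360 and 372 CPM in MLL-ENL dYEATS and to 147 and 123 CPM in MLL-ENL, most of it S100a8 and S100a9. Without this pair the other 8 summed to 36.5 and 34.4 CPM against 69.9 and 59.3 CPM. Ngp alone set the direction of that sum, at 22.1 and 19.7 CPM against 59.0 and 49.0 CPM. Of 9 tested, S100a8, S100a9, Mmp8, Mmp9 and Cxcr2 were called higher and Ngp lower. Of 8 dendritic cell markers 2 were tested and went opposite ways. Itgax was called higher, at 2.25 and 1.85 CPM in MLL-ENL dYEATS against 0.0373 and 0.0711 CPM in MLL-ENL, and H2-Ab1 lower, at 0.0681 and 0 CPM against 4.40 and 3.45 CPM. H2-Aa was at 0 throughout. Among 6 stromal and endothelial markers Pecam1, which leukocytes also express, was called higher, at 60.5 and 59.9 CPM against 4.74 and 5.65 CPM. The other 5 summed to 0.34 and 0.244 CPM against 0.635 and 0.391 CPM, with Cdh5 and Kdr at 0 throughout. Their part in the results above was not tested, and in bulk RNA fewer cells of a type and less RNA per cell cannot be told apart.

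Of the 2 remaining targets 1 was called. Icam1, an adhesion molecule induced on many cells by TNF (chromosome 9, 21015985 to 21028817), lay at 10.2 and 10.5 CPM in MLL-ENL dYEATS and at 19.7 and 18.4 CPM in MLL-ENL. It was called lower (log2 fold change -0.87 ± 0.12 SE, adjusted p = 0.00866), except without MLL-ENL dYEATS replicate 1 or 2 (0.0903 and 0.0621, with log2 fold changes of -0.86 and -0.90). Ptgs2, which encodes the prostaglandin synthase COX-2, had 26 and 42 counts against 8 and 13 counts and was not called (1.61 ± 0.42 SE, adjusted p = 0.0568). Ptgs2 was called higher without MLL-ENL replicate 1 (1.34) or 2 (1.96) and without MLL-ENL dYEATS replicate 1 (1.93). With every library kept, Ptgs2 was called higher with a replicate block and with the gene-length trend removed.

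A list of 109 other genes of the pathway gave a share of calls similar to that of the members, with 13 higher and 10 lower of 85 tested. That is 27.1%, against 16.9% of all tested genes, and the median log2 fold change was -0.04. This list too was chosen with earlier results of these data known, and no test was made of it. Among 17 tested receptors of the TNF, IL-1 and Toll-like families 4 were higher and 2 lower (35.3% called). Tnfrsf11a (RANK, which signals to both NF-kB pathways) had 1.91 ± 0.381 CPM in MLL-ENL dYEATS and 0.200 ± 0.0188 CPM in MLL-ENL (SD, n = 2 each; adjusted p = 0.00397). Tlr1, a partner of TLR2 in sensing lipopeptides, had 10.4 ± 1.19 CPM against 2.77 ± 0.0589 CPM (log2 fold change 1.91, adjusted p = 0.00215). Tnfrsf13b, which encodes TACI, a receptor for BAFF and APRIL, fell to 32.5 ± 0.314 CPM in MLL-ENL dYEATS, against 76.1 ± 3.55 CPM in MLL-ENL (adjusted p = 0.00209). The IL-1 decoy receptor Il1r2 was lower too, at 9.83 ± 1.03 CPM against 15.3 ± 0.761 CPM (0.0346), a call lost without MLL-ENL dYEATS replicate 1 or 2 (0.2 and 0.446).

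Of 32 proximal adaptors and kinases 4 were lower and 0 higher. That is 12.5% called, against 16.9% of all tested genes, of which 9.84% were called lower. Irak4, the kinase that binds MYD88, fell to 36.9 ± 0.608 CPM in MLL-ENL dYEATS, against 67.6 ± 2.93 CPM in MLL-ENL (log2 fold change -0.87, adjusted p = 0.00625), and Tax1bp1, which works with A20, fell to 358 ± 2.56 CPM, against 640 ± 8.38 CPM (-0.84, 0.00537). Both calls were lost without MLL-ENL dYEATS replicate 1 (adjusted p = 0.0765 for Irak4 and 0.108 for Tax1bp1) or 2 (0.0865 and 0.142). The IkB kinase genes, chosen after their values were seen, were not called. Chuk (IKK-alpha) lay at 77.1 and 80.7 CPM against 43.0 and 57.6 CPM (0.65, adjusted p = 0.0541) and Ikbkb (IKK-beta) at 62.1 and 61.5 CPM against 76.5 and 77.2 CPM (-0.32, 0.1). Chuk was called higher in 7 of 16 alternatives, 5 of which kept every library, DESeq2 among them, and 2 of which left out MLL-ENL replicate 1 (0.46) or 2 (0.87). Ikbkb was called lower only in the 2 alternatives that left out MLL-ENL replicate 1 (-0.32) or 2 (-0.31).

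Of 38 other induced chemokines, cytokines and targets 19 were tested, 6 were higher and 1 was lower. The share called was 36.8%, against 16.9% of all tested genes. Il12a, the p35 subunit of IL-12, had 142 and 180 counts in MLL-ENL dYEATS against 7 and 9 counts in MLL-ENL (log2 fold change 4.23 ± 0.30 SE, adjusted p = 0.00106). Plau, the urokinase gene, had 6.44 ± 0.377 CPM against 1.91 ± 0.0403 CPM (1.75, 0.00327). The one that fell was Tnfsf14 (LIGHT), at 16.6 ± 0.884 CPM in MLL-ENL dYEATS and 23.3 ± 0.508 CPM in MLL-ENL (-0.49, 0.0446), and its call held in 7 of 16 alternatives (0.441 without MLL-ENL dYEATS replicate 1 and 0.588 without replicate 2).

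Inflammasome and pyroptosis genes beyond the members did not share one direction, with 3 higher and 3 lower of 18 tested. The share called was 33.3%, against 16.9% of all tested genes. P2rx7, the ATP-gated channel whose opening activates NLRP3 in macrophages, had 167 and 136 counts in MLL-ENL dYEATS against 2 and 4 in MLL-ENL (log2 fold change 5.52 ± 0.35 SE, adjusted p = 0.000749). Nlrp12 rose to 4.99 ± 0.499 CPM in MLL-ENL dYEATS, against 2.55 ± 0.14 CPM in MLL-ENL (0.97, 0.0249). The channel gene Panx1 (11.6 ± 0.313 CPM against 23.0 ± 4.27 CPM, -0.99, adjusted p = 0.0155) and Il18bp, which encodes an IL-18 inhibitor (1.76 ± 0.0673 CPM against 3.20 ± 0.00771 CPM, -0.87, 0.0403), fell in MLL-ENL dYEATS. Without MLL-ENL dYEATS replicate 1 or 2 the calls of Nlrp12 (0.245 and 0.088) and Il18bp (0.299 and 0.369) were lost. Among genes chosen after their values were seen, Casp4, the sensor of cytoplasmic lipopolysaccharide, was lower (8.75 and 9.10 CPM against 14.5 and 14 CPM, adjusted p = 0.0214; 0.334 and 0.238 without MLL-ENL dYEATS replicate 1 or 2). The pore-forming Gsdmd lay at 55.1 and 53.2 CPM against 73.7 and 60.6 CPM and was not called (0.18), and leaving out MLL-ENL replicate 1 or 2 made it a lower call, at -0.16 and -0.44 on the log2 scale.

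The 9 called members differed in how far their calls rested on the processing. Tnfaip3, Ccl6, Nlrp3 and Nlrc4 were called in every alternative that tested them, while Rel, Relb, Bcl3, Casp1 and Icam1 were not. On the log2(FPKM + 1) scale, which shrinks the change of low genes, the log2 fold change was 0.52 for Relb, 0.77 for Tnfaip3 and -0.64 for Nlrp3. With the MLL-ENL libraries left out in turn the spread rested on the tight MLL-ENL dYEATS pair. Most of all tested genes were then called. The member calls named above for those fits therefore say little about the members. With either MLL-ENL dYEATS library left out, Relb, Bcl3, Casp1 and Icam1 lost their calls. The log2 fold change had the same sign in all alternatives for 28 of 32 tested members, the exceptions being Nfkb1, Nfkbie, Nfkbiz and Birc2. All alternatives reuse the same libraries, so a kept sign is no independent support.

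**Figure D4:**
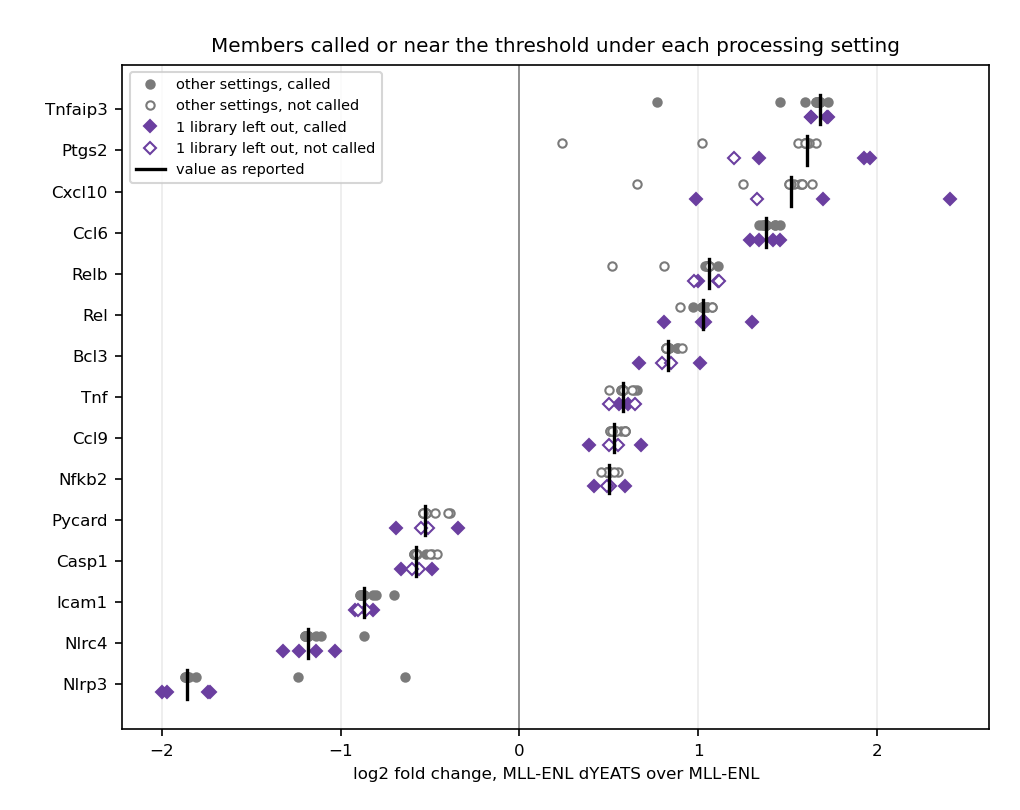
Log2 fold change of MLL-ENL dYEATS over MLL-ENL under each setting for the 9 called members and the 6 with adjusted p between 0.05 and 0.1. Black bars are the values as reported, diamonds leave 1 library out, circles are the other settings, and filled symbols passed the adjusted p of 0.05; no gene shown crosses 0.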

How the data were processed

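RNA was prepared with an RNeasy kit and libraries with Lexogen poly(A) selection and a Swift RNA kit, per the labels' protocols. Per the submitters' processing notes the tools were STAR 2.7.8a, RSEM 1.3.3, cutadapt 2.3 and FastQC 0.11.8, on GRCm38. Their settings, the annotation and the strand are not stated there, so overlapping and antisense genes are uncertain. The authors deposited expected counts per gene (whole numbers) and FPKM, scaled by the authors for gene length and depth. Positions and exonic lengths come from GENCODE M21.

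Counts were filtered with filterByExpr (13245 of 55426 genes), TMM-scaled and tested across all genes with edgeR 4.0.16 (R 4.3.3; glmQLFit with legacy fit, glmQLFTest; 2 residual degrees of freedom), with Benjamini-Hochberg adjustment over all genes and a call at adjusted p under 0.05. The fit was also run on simulated counts drawn from its own estimate of the spread, which cannot show whether that estimate holds for these libraries. SE is the log2 fold change over the square root of F. Alternatives, 16 in all, used DESeq2 1.42.0, limma 3.58.1 and other scalings, filters and library subsets. Count ratios have exact binomial 95% intervals.

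Members, roles, lists and alternatives were chosen with earlier results of these data known. Every member is reported; from each further list up to 2 called genes per direction were named, by size of change, given that one group averaged at least 1 CPM.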

Additional observations from a re-analysis of the deposited data

How the results depend on the processing

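Of the 16 alternatives, the 12 that kept all libraries left the sign of 31 of the 32 tested members, but counts of calls moved. A minimum of 5 CPM in 2 libraries gave 540 higher and 807 lower genes, and 7 other pathway genes higher. With limma on log2(FPKM + 1), 2 members were called higher, 837 genes lower and 6 other pathway genes lower; with log2(FPKM + 0.1), 2 members higher and 6 other pathway genes lower. Removing the gene-length trend called 9 members higher.

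The replicate numbers did not pair the libraries (correlation of same-numbered deviations -0.0678 over 13237 genes, 2 pairs). With the replicate block, 9 members and 1435 genes were called higher.

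With 1 library left out, 3 to 14 members were called higher and 2 to 9 lower, 573 to 4582 of all genes higher and 859 to 4507 lower, and 9 to 35 other pathway genes higher and 2 to 33 lower. A lone library is then assumed to vary like the pair of the other group. The log2 fold change of Nfkb1 was 0.01 with library totals and -0.28 to 0.25 with 1 library left out; those ranges were -0.41 to 0.03 for Nfkbie, -0.49 to 0.12 for Nfkbiz (0.01 without MLL-ENL replicate 2) and -0.10 to 0.14 for Birc2. The cause was not tested.

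The MLL-ENL libraries differed from each other by gene length (Spearman rho -0.391 across genes, which are not independent). With 2 libraries a group and few counts for Il1a, Il1b, Il18, Cxcl2 and Cd40, small differences were not detectable.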
